A study of Mus musculus with 43 samples.

Results

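C1qa, C1qb, C1qc, Maf, Apoe, Pf4 and Mrc1 are 7 genes that mark interstitial and other tissue macrophages, and they were followed here across phagocytes sorted from the newborn mouse lung. They were found by matching the Ensembl identifiers of the deposited count table to these symbols, which gave 7 of the 37991 genes in the table. The study exposed newborn C57BL/6 pups to hyperoxia, a fraction of inspired oxygen of 0.9, or to normoxia, for 1.5 days in each case. Whole lungs were perfused and digested, and 4 populations were sorted: DC (MHCIIhi CD11chi), AM (alveolar macrophages, SiglecFhi CD11chi), Ly6Chi (Ly6Chi CD11clo monocytes and macrophages) and Ly6Clo (Ly6Clo CD11chi monocytes and macrophages). Each population had 5 hyperoxic libraries. Normoxic libraries numbered 6 in DC, AM and Ly6Chi and 5 in Ly6Clo, so there were 43 libraries in 8 groups. The pups came from litters 93, 100 and 108, and each litter is present in each group. Newborn litters were mixed before assignment, and the labels name a litter but no single pup, so p-values measure the spread between libraries. Replicate numbers here only name the libraries of a group in the order they are listed. The labels do not say whether sorts of different populations came from the same lungs. The fits treat libraries as independent apart from litter. The sorts are gates on surface markers and the libraries are bulk RNA, so fewer cells of a type and less RNA per cell cannot be told apart.

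C1q is the recognition molecule of the classical complement pathway. It is built of A, B and C chains encoded by C1qa, C1qb and C1qc, binds antibody complexes and dying cells, and is made mainly by tissue macrophages. Maf encodes c-Maf, a transcription factor of resident macrophages. Apoe encodes apolipoprotein E, which carries cholesterol out of macrophages. Pf4 encodes the chemokine platelet factor 4 (CXCL4), stored in platelet granules and also made by some tissue macrophages. Mrc1 encodes CD206, a mannose receptor for glycoproteins that both alveolar and interstitial macrophages carry.

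The C1q genes lie on mouse chromosome 4, Mrc1 on chromosome 2, Pf4 on chromosome 5, Apoe on chromosome 7 and Maf on chromosome 8. Because the levels of the C1q genes moved together while Pf4 and Mrc1 had patterns of their own, the 250 bases before the RefSeq start of these genes (build GRCm38.p6) are shown for comparison. The C1qb region is chr4:136886201-136886450 and the C1qc region is chr4:136892915-136893164, both on the minus strand. The Pf4 region is chr5:90772185-90772434 and the Mrc1 region is chr2:14229164-14229413, both on the plus strand. Capitals mark AGGAAGT read on the other strand (ACTTCCT), a core sequence bound by ETS factors such as PU.1, and TGCTGA, a core of sites bound by Maf factors.
C1qb: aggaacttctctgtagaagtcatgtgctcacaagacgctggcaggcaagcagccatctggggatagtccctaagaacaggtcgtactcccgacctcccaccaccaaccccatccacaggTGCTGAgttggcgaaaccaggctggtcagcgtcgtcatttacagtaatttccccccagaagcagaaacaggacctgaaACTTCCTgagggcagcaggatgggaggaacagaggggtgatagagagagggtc
C1qc: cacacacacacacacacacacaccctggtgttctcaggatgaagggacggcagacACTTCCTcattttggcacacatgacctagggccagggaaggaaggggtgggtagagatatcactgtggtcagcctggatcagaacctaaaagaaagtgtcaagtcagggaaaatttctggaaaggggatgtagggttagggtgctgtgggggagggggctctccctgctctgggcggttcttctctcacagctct
Pf4: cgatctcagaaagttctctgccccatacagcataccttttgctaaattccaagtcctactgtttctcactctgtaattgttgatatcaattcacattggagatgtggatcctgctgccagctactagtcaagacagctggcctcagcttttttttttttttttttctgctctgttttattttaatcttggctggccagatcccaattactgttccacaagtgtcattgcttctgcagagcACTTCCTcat
Mrc1: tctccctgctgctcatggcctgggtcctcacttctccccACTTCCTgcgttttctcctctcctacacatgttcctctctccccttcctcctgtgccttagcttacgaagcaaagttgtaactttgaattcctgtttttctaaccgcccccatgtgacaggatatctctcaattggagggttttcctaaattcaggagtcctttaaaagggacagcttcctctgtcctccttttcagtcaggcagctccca
ACTTCCT was found 53 bases before the start in C1qb, 195 in C1qc, 10 in Pf4 and 211 in Mrc1. TGCTGA was found in C1qb alone of these 4 regions, 131 bases before the start. Both motifs were searched on both strands, and they do not overlap. None was found in the regions of the 3 Apoe starts in the RefSeq table. Over all 32851 promoter regions of this length, 7.69% held AGGAAGT and 16.1% held TGCTGA. The motifs were chosen with these sequences in view, so the matches are a description of letters. C1qa and Maf were not matched, which leaves 5 of 7 genes with a region.

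The libraries held 551960 to 2403861 counts, and AM were the shallowest, with 3 of 5 hyperoxic and 1 of 6 normoxic libraries under 1000000. Levels are given as TMM-scaled counts per 1000000 counts (CPM). No molecular identifiers are described, and no gene in any library passed a count of 4012. Among the 7 genes the highest count per exonic base was 1.36 in C1qb and 0.971 in Apoe. Correcting for an assumed limit of 2 counts per exonic base raised the C1qb mean 1.42-fold in hyperoxic and 1.30-fold in normoxic DC. Siglecf, the gene of Siglec-F, was at a median of 88.1 CPM in hyperoxic and 138 CPM in normoxic AM, and at 2.27 to 21.9 CPM in the 6 other groups. Other alveolar macrophage markers were also high in Ly6Clo: the 17 markers summed to medians of 4897 CPM in hyperoxic and 4053 CPM in normoxic Ly6Clo, against 8789 CPM in hyperoxic and 7186 CPM in normoxic AM, and to 833 to 948 CPM in DC and Ly6Chi. Flt3 and Zbtb46, which define conventional dendritic cells, were at medians of 243 and 137 CPM in hyperoxic DC and 286 and 162 CPM in normoxic DC. Macrophage markers in the DC sort were mixed. The median of Fcgr1, which encodes the receptor CD64, was 246 CPM in hyperoxic and 214 CPM in normoxic DC. It was lowest in AM (93.0 CPM in hyperoxia and 113 CPM in normoxia) and highest in Ly6Chi (381 and 378 CPM). Mertk, the apoptotic cell receptor gene, had medians of 60.9 CPM in hyperoxic and 33.0 CPM in normoxic DC. Its medians were 328 and 283 CPM in AM and 219 and 197 CPM in Ly6Clo. Sftpc, a surfactant gene of the epithelium, had medians of 89.1 to 900.0 CPM across the 8 groups. Neutrophil markers summed to medians of 2806 CPM in hyperoxic and 2586 CPM in normoxic Ly6Chi, against 266 to 672 CPM in the 6 other groups. Ly6g, one of them, had medians of only 2.6 and 3.4 CPM in Ly6Chi. B cell markers summed to medians of 1198 CPM in hyperoxic and 1140 CPM in normoxic DC, against 41.6 to 667 CPM elsewhere. The part of such RNA in the levels of the 7 genes was not tested.

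C1q genes were highest in DC and Ly6Clo, intermediate in Ly6Chi and near the bottom of the scale in AM, in hyperoxia as in normoxia. C1qb, which encodes the B chain, was at 627, 732, 934, 523 and 765 CPM in hyperoxic DC, against a lowest, median and highest of 529.8, 569 and 591 CPM in normoxic DC. In Ly6Clo, C1qb was at 547, 585, 289, 421 and 246 CPM in hyperoxia and at 636, 662, 511, 410.0 and 329 CPM in normoxia. Ly6Clo libraries of litter 93 (the leading pair of values in each condition) were above all others of their group, and hyperoxic and normoxic values overlapped in both populations. In Ly6Chi, C1qb was at 126, 160.4, 252, 113 and 356 CPM in hyperoxia, against 97.2, 121 and 193 CPM (lowest, median, highest) in normoxia. In AM, C1qb was at 109.9, 4.90, 55.3, 33.3 and 63.6 CPM in hyperoxia, against 3.40, 17.0 and 47.6 CPM in normoxia. The AM groups overlapped each other and lay entirely below the Ly6Clo and DC groups.

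C1qa and C1qc, the genes of the A and C chains, had the same order of populations. C1qa averaged 350.2 ± 39.6 CPM in hyperoxic DC (SD, n = 5) and 281 ± 71.3 CPM in normoxic DC (n = 6), and 187 ± 118 CPM in hyperoxic and 231 ± 146 CPM in normoxic Ly6Clo (n = 5 each). It averaged 49.9 ± 39.0 CPM in hyperoxic and 21.4 ± 11.5 CPM in normoxic Ly6Chi, and 13.9 ± 18.1 CPM in hyperoxic and 3.85 ± 3.06 CPM in normoxic AM. The C1qa count behind a normoxic AM library was 2 to 12, so its level there is set by a few reads. C1qc averaged 497 ± 112 CPM in hyperoxic and 379 ± 49.7 CPM in normoxic DC, and 274 ± 124 CPM in hyperoxic and 340.5 ± 148 CPM in normoxic Ly6Clo. It averaged 97.4 ± 57.4 CPM in hyperoxic and 48.0 ± 12.3 CPM in normoxic Ly6Chi, and 22.9 ± 27.7 CPM in hyperoxic and 7.22 ± 6.69 CPM in normoxic AM. Of the normoxic AM libraries, 1 had 0 counts of C1qc. From the highest group (hyperoxic DC) to the lowest (normoxic AM), mean levels differed 91.0-fold for C1qa, 68.8-fold for C1qc and 35.4-fold for C1qb.

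**Figure D1:**
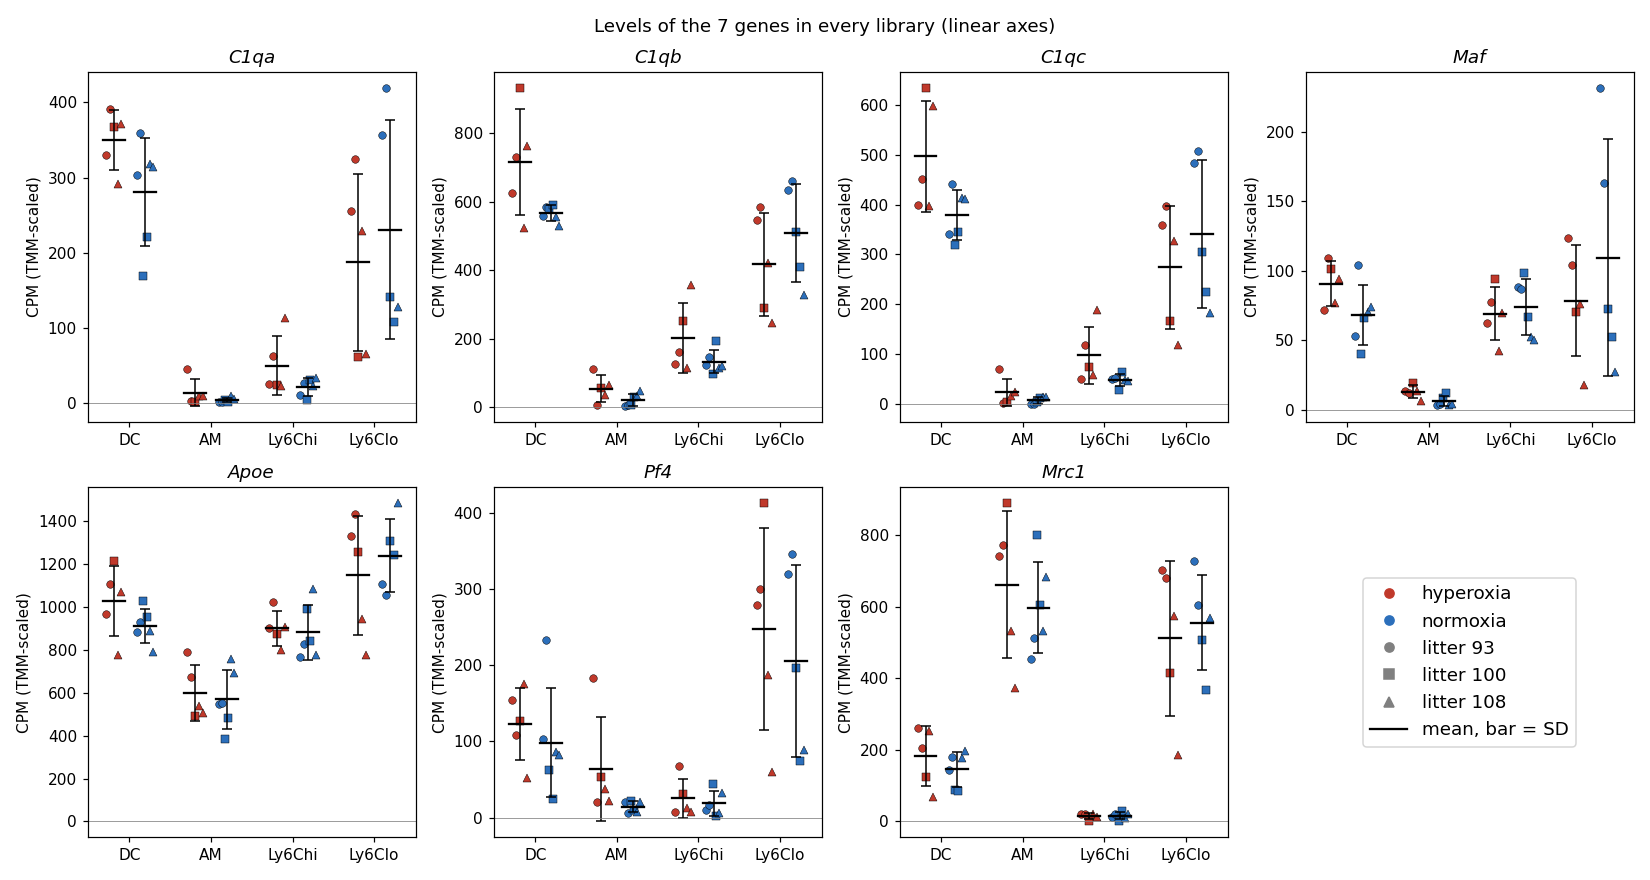
Level of each gene in every library (y axes, TMM-scaled CPM, linear) by population, with hyperoxia in red left of normoxia in blue, marker shapes for the 3 litters, and the mean with its SD in black. The C1q genes are high in DC and Ly6Clo and low in AM (C1qb means of 53.4 CPM in hyperoxic and 20.3 CPM in normoxic AM), while Mrc1 is high in AM and Ly6Clo and low in Ly6Chi.

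Set against each other in normoxia, Ly6Clo and DC were not separated by any C1q gene. C1qa differed by a log2 fold change (Ly6Clo over DC) of −0.32 ± 0.32 (SE, adjusted p = 0.54), C1qb by −0.14 ± 0.33 (adjusted p = 0.809) and C1qc by −0.17 ± 0.32 (adjusted p = 0.769). Of the 7 genes, 2 were called higher in Ly6Clo than in DC (Apoe and Mrc1) and 0 lower, against 12.7% of 11979 genes called higher and 11.7% called lower. With detected gene number added to the fit, the C1q differences turned positive (0.56, 0.29 and 0.52) and stayed uncalled, so their order between these populations was not resolved. Detected genes averaged 16095 ± 214 in normoxic DC and 15078 ± 537 in normoxic Ly6Clo (SD), so this covariate is confounded with population.

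Against AM the C1q genes were far higher in both. In Ly6Clo over AM, 6 of the 7 genes were called higher and 0 lower (background 14.2% and 7.28%), with C1qa at 5.95 ± 0.48 on the log2 scale (adjusted p = 8.7e-09), C1qc at 5.56 ± 0.45 (adjusted p = 1.01e-08) and C1qb at 4.66 ± 0.41 (adjusted p = 6.65e-08). In DC over AM, 6 were called higher and 1, Mrc1, lower (background 27.5% and 22.4%), with C1qa at 6.27 ± 0.47 (adjusted p = 3.77e-10). Ly6Chi lay between. In Ly6Clo over Ly6Chi, 6 were higher and 0 lower (background 15% and 15.7%), and the C1q differences were 3.36 ± 0.37 for C1qa, 2.81 ± 0.34 for C1qc and 1.96 ± 0.34 for C1qb. In DC over Ly6Chi, 5 were higher and 0 lower (background 14.2% and 14.4%), with 3.68 ± 0.35 for C1qa and 2.10 ± 0.32 for C1qb (adjusted p = 4.74e-08 and 3.99e-05). In AM over Ly6Chi, 1 was higher (Mrc1) and 5 were lower (background 24.0% and 28.3%), with all C1q genes between −2.75 and −2.59. The median log2 fold change over the 7 genes was 4.02 for Ly6Clo over AM and 2.81 for Ly6Clo over Ly6Chi, where the medians over all genes were 0.03 and −0.03.

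**Figure D2:**
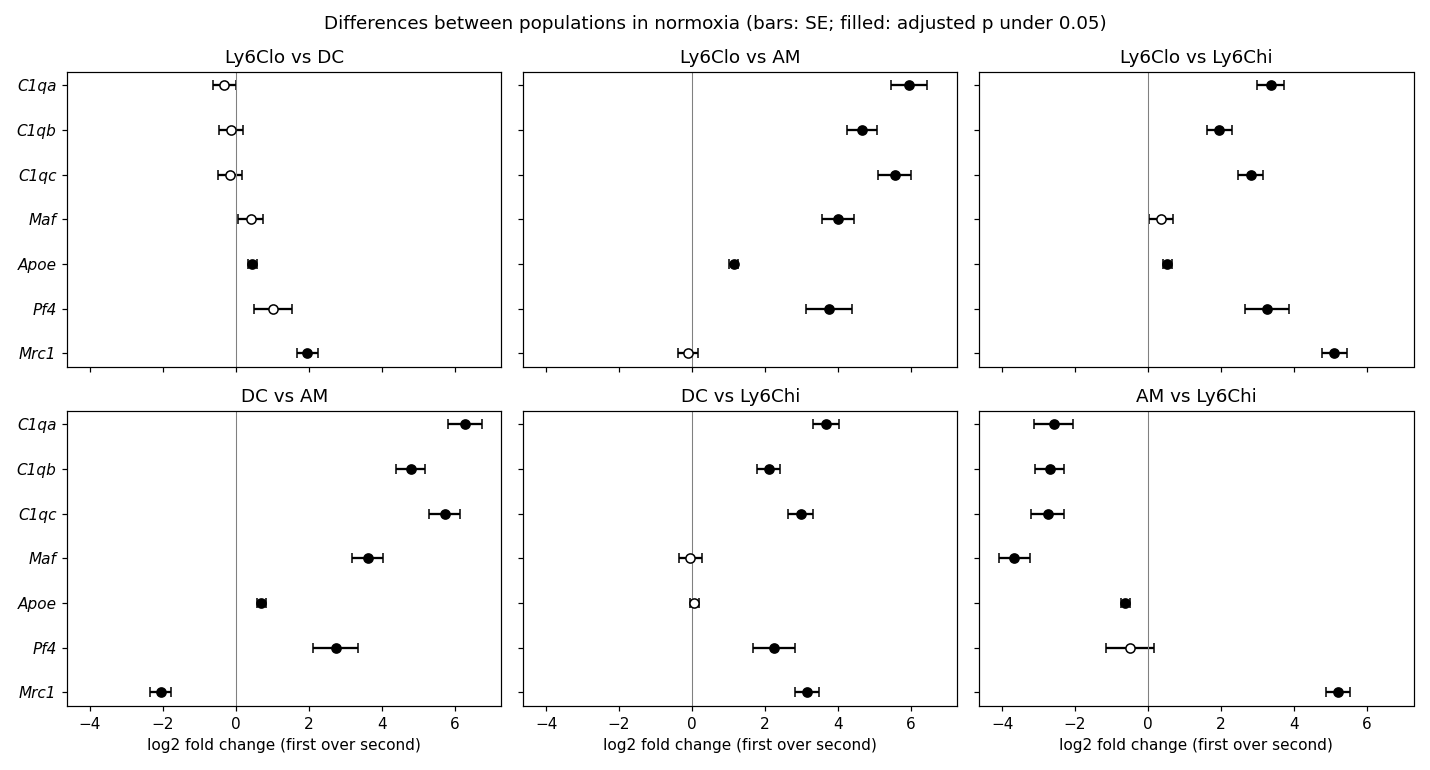
Log2 fold change of the 7 genes between populations in normoxia (x axes, the population named in front over the other, with its SE), with filled points for an adjusted p under 0.05. C1q genes sit near 0 in Ly6Clo against DC and between 1.96 and 6.27 in Ly6Clo or DC against AM or Ly6Chi, and Mrc1 is the member with the opposite sign in DC against AM and in AM against Ly6Chi.

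The make-up of C1q RNA also varied between populations. Per exonic length, C1qb supplied the largest share in every group, at 52.3 ± 2.20% in hyperoxic and 53.2 ± 5.63% in normoxic DC, and 56.8 ± 7.32% in hyperoxic and 56.0 ± 6.98% in normoxic Ly6Clo (SD over libraries). In Ly6Chi its share was 66.3 ± 9.08% in hyperoxia and 73.3 ± 5.82% in normoxia. C1qa had the smaller share there: 27.2 ± 2.72% in hyperoxic and 27.0 ± 5.02% in normoxic DC, against 16.0 ± 5.72% in hyperoxic and 11.8 ± 5.54% in normoxic Ly6Chi. The C1qc share stayed between 14.9% and 20.5% on average outside AM. These shares were not tested, and the part of a limit on C1qb counts in them was not tested. In AM the shares rest on few counts and scattered widely (C1qb 69.0 ± 14.8% in hyperoxia and 67.8 ± 12.04% in normoxia).

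**Figure D3:**
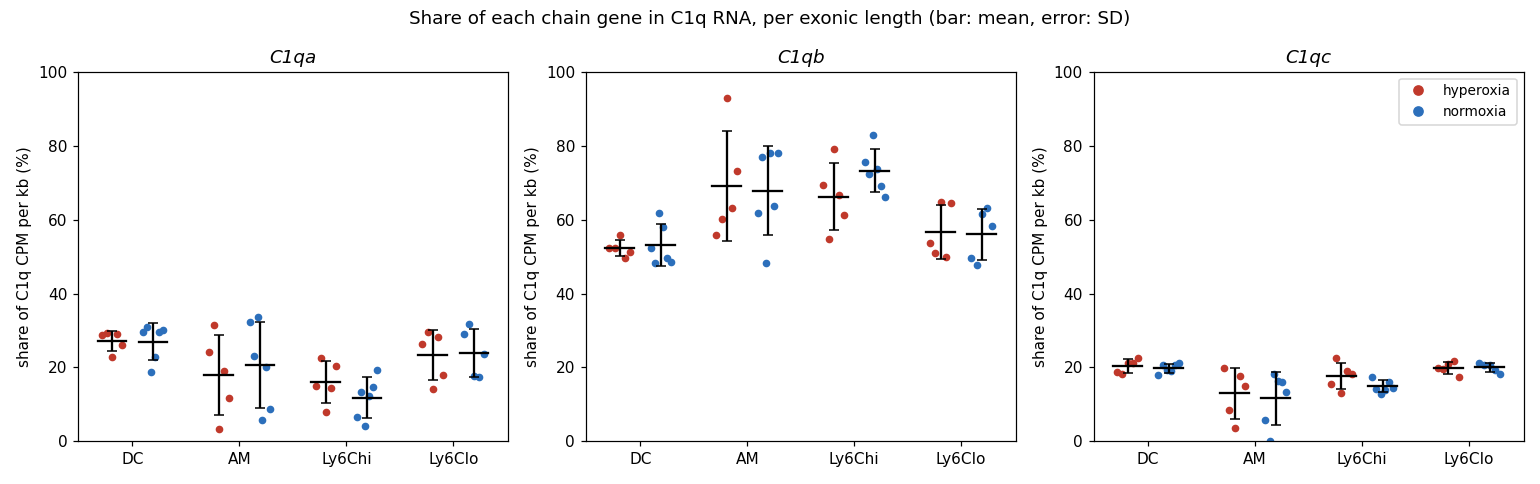
Share of C1qa, C1qb and C1qc in their summed CPM per kilobase of exon (y axes, percent) in each library, with hyperoxia in red left of normoxia in blue and the group mean with its SD in black. C1qb takes 52.3% to 73.3% of the sum on average across the 8 groups, most in normoxic Ly6Chi, where C1qa takes least.

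Maf, the gene of the c-Maf transcription factor, did not follow C1q in Ly6Chi. It was at 62.5, 77.3, 94.3, 41.9 and 69.8 CPM in hyperoxic Ly6Chi, against 50.2, 76.9 and 98.5 CPM (lowest, median, highest) in normoxic Ly6Chi. In DC it was at 71.9, 109, 102, 76.8 and 94.3 CPM in hyperoxia and at 40.2, 68.1 and 104 CPM in normoxia. These ranges overlap, and DC over Ly6Chi differed by −0.05 ± 0.32 in normoxia (adjusted p = 0.937). Ly6Clo spread most, with 123, 105, 70.3, 76.3 and 18.0 CPM in hyperoxia and 232, 163, 72.4, 52.6 and 27.0 CPM in normoxia. In both conditions litter 93 was highest, and over the libraries of both conditions it averaged 156 CPM, against 65.1 CPM in litter 100 and 40.4 CPM in litter 108. The log2 difference of Ly6Clo over Ly6Chi, 0.35 ± 0.34 (adjusted p = 0.457), was −0.51 without litter 93. AM were lowest, at 13.4, 12.2, 19.1, 13.2 and 6.12 CPM in hyperoxia and 3.15, 4.29 and 12.1 CPM in normoxia, and AM over Ly6Chi differed by −3.66 ± 0.42 (adjusted p = 1.19e-07). An antisense gene overlaps Maf in the annotation, and since the strand used for counting is not given, reads of the pair cannot be told apart.

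Apoe, the gene of the cholesterol carrier apolipoprotein E, was abundant in all populations and varied least. Its group means ran from 569 ± 137 CPM in normoxic AM to 1241 ± 169.9 CPM in normoxic Ly6Clo, a 2.18-fold range. Ly6Clo libraries held 1333, 1433, 1256, 947 and 775 CPM in hyperoxia and 1110.3, 1056, 1307, 1244 and 1486 CPM in normoxia. In normoxia Ly6Clo exceeded DC by 0.45 ± 0.12 (adjusted p = 0.00721), Ly6Chi by 0.52 ± 0.12 (adjusted p = 0.00191) and AM by 1.15 ± 0.13 (adjusted p = 1.73e-07), while DC and Ly6Chi were not separated (0.07 ± 0.12, adjusted p = 0.719). The call against DC was lost without litter 108 (0.33, adjusted p = 0.0773) and with detected genes as a covariate (0.39, adjusted p = 0.132). Detected gene number is itself confounded with population in that pair. Correcting counts for the limit raised the Apoe means 1.06-fold to 1.24-fold.

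Pf4, the gene of the chemokine CXCL4, was highest in Ly6Clo. It was at 279, 300.3, 412, 187 and 59.5 CPM in hyperoxic Ly6Clo, against 319, 346, 196, 74.5 and 88.9 CPM in normoxic Ly6Clo. DC came next, at 154, 108, 126, 175 and 51.5 CPM in hyperoxia and 24.2, 84.3 and 232 CPM (lowest, median, highest) in normoxia. Ly6Chi had 7.88, 67.6, 31.4, 12.6 and 7.25 CPM in hyperoxia and 2.13, 12.9 and 44.0 CPM in normoxia. In normoxia Ly6Clo exceeded Ly6Chi by 3.27 ± 0.60 (adjusted p = 0.000311) and AM by 3.76 ± 0.64 (adjusted p = 0.000288), whereas Ly6Clo and DC (1.02 ± 0.53, adjusted p = 0.189) and AM and Ly6Chi (−0.49 ± 0.66, adjusted p = 0.563) did not pass the test. Pf4 in Ly6Clo over DC did pass with limma voom (1.03, adjusted p = 0.0334) and without the filter on low counts (1.03, adjusted p = 3.58e-06). DC exceeded AM by 2.74 ± 0.62 and Ly6Chi by 2.25 ± 0.57 (adjusted p = 0.00109 and 0.00521). Both calls were lost with detected genes as a covariate (adjusted p = 0.144 and 0.119). That covariate is confounded with population, since normoxic libraries averaged 16095 detected genes in DC, 14525 in AM and 15064 in Ly6Chi. The call against Ly6Chi was also lost without litter 93 (adjusted p = 0.135). Because Pf4 is also a platelet gene, the platelet markers were read beside it. The summed level of 12 platelet and megakaryocyte markers other than Pf4 ran from 33.7 to 165 CPM in hyperoxic and 23.5 to 66.0 CPM in normoxic Ly6Clo, and from 60.0 to 150.0 CPM in hyperoxic and 27.4 to 122 CPM in normoxic AM. Pf4 was above the platelet sum in 4 of 5 hyperoxic and 5 of 5 normoxic Ly6Clo libraries, and in 1 of 5 hyperoxic and 0 of 6 normoxic AM libraries. In DC it was above in 4 of 5 hyperoxic and 3 of 6 normoxic libraries, and in Ly6Chi in 1 of 5 and 0 of 6. Hyperoxic DC replicate 4 had the highest platelet sum, 216 CPM. In Ly6Clo over Ly6Chi in hyperoxia, 2 of 4 platelet markers tested were called higher and 0 lower, and in normoxia 0 of 3 were called. The Ly6Clo library with the most Pf4 (412 CPM) also had the highest platelet sum of the Ly6Clo libraries (165 CPM), with Ppbp, another platelet chemokine gene, at 0. Over Ly6Clo, Ppbp was at 0 in 1 of 5 hyperoxic and 2 of 5 normoxic libraries and reached 30.7 CPM in hyperoxia and 21.1 CPM in normoxia. Gp9 was likewise at 0 in 1 of 5 hyperoxic and 2 of 5 normoxic Ly6Clo libraries. The part of platelet RNA in these levels was not tested.

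Mrc1, the gene of the mannose receptor CD206, had its highest means in AM and Ly6Clo. It was at 742, 772, 890.3, 532 and 374 CPM in hyperoxic AM, against 454, 568 and 801 CPM (lowest, median, highest) in normoxic AM. Ly6Clo held 704, 681, 416, 574 and 185 CPM in hyperoxia and 728, 606, 509, 368 and 568 CPM in normoxia. The AM and Ly6Clo ranges overlapped, and their normoxic difference was −0.11 ± 0.28 (Ly6Clo over AM, adjusted p = 0.822). DC held 262, 206, 123, 253 and 69.5 CPM in hyperoxia and 85.2, 161 and 198 CPM (lowest, median, highest) in normoxia, so 3 hyperoxic DC libraries were above the lowest hyperoxic Ly6Clo library. Ly6Chi averaged 14.4 ± 8.74 CPM in hyperoxia and 15.9 ± 9.67 CPM in normoxia, with 0 counts in 1 hyperoxic library. In normoxia Ly6Clo exceeded DC by 1.96 ± 0.29 (adjusted p = 2.37e-05) and Ly6Chi by 5.11 ± 0.34 (adjusted p = 4.08e-10), and AM exceeded Ly6Chi by 5.21 ± 0.34 (adjusted p = 3.65e-11). The alveolar macrophage markers moved with Mrc1 in part. Of 17 tested in normoxia, 15 were higher and 0 lower in Ly6Clo than in DC, and 14 were higher and 0 lower in Ly6Clo than in Ly6Chi. In Ly6Clo over AM, 0 of the 17 markers were higher and 11 lower (median −0.78, background 14.2% and 7.28%), while Mrc1 was not separated there. The part of these markers in the Mrc1 levels was not tested. The microRNA gene Mir511 lies within Mrc1 on the same strand, and reads of the shared sequence cannot be assigned to either from these counts.

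Read together, C1qb and Mrc1 placed each population in its own region. The median ratio of Mrc1 to C1qb in CPM was 16.0 in hyperoxic and 61.2 in normoxic AM, and 1.29 in hyperoxic and 0.995 in normoxic Ly6Clo. It was 0.281 in hyperoxic and 0.282 in normoxic DC, and 0.129 in hyperoxic and 0.122 in normoxic Ly6Chi. The lowest ratio in an AM library, 5.88, was above the highest in a Ly6Clo library, 1.73, and the lowest Ly6Clo ratio, 0.751, was above the highest in DC, 0.485. DC and Ly6Chi ratios overlapped. The normoxic AM ratios were 134, 102, 158, 20.9, 16.9 and 14.4, so no library lay near their median, and the 3 high ones rest on 3 to 7 counts of C1qb.

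**Figure D4:**
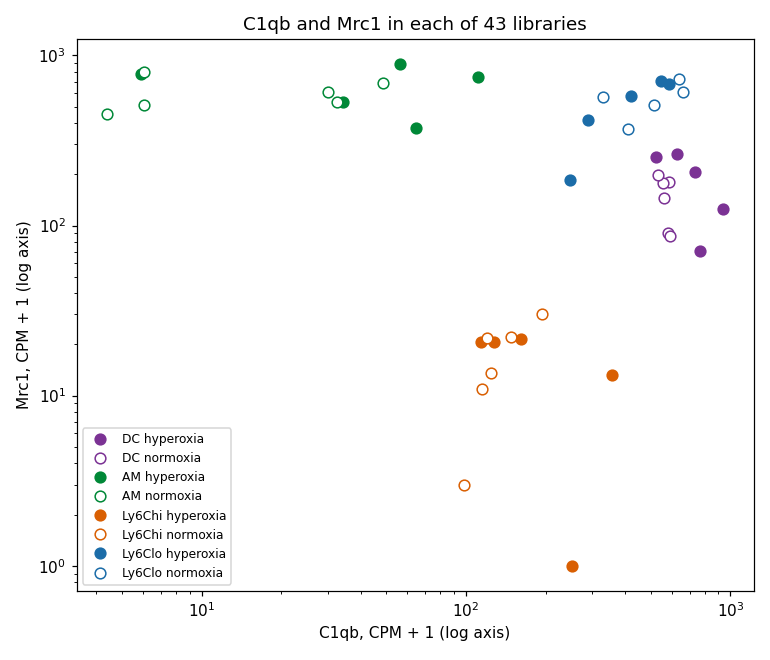
C1qb (x axis) and Mrc1 (y axis), both in CPM + 1 on log axes, in each of 43 libraries, with filled points for hyperoxia and open points for normoxia. AM sit high and to the left, Ly6Clo high and to the right, DC to the right at intermediate Mrc1, and Ly6Chi low (group means of Mrc1 of 14.4 CPM in hyperoxia and 15.9 CPM in normoxia).

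Hyperoxia was then compared with normoxia within each population, with litter in the fit. By edgeR none of the 7 genes passed the test in DC, Ly6Chi or Ly6Clo, and none of the 6 tested in AM, where C1qa was too low to be kept. The shares of all genes called were 0% in DC, 0.110% in AM, 0% in Ly6Chi and 0% in Ly6Clo. At an unadjusted p under 0.05 there were 998 of 11274 genes tested in DC, 990 of 9986 in AM, 591 of 10844 in Ly6Chi and 540 of 10188 in Ly6Clo. These included 4 of 7 members in DC, 2 of 6 in AM, 1 of 7 in Ly6Chi and 0 of 7 in Ly6Clo. For all 7 genes and all 4 populations the hyperoxic and normoxic libraries overlapped, where 0.452% of genes in DC, 0.881% in AM, 0.184% in Ly6Chi and 0.687% in Ly6Clo did not overlap. DESeq2 called 1 member, Pf4 in AM (1.98, adjusted p = 0.0205), among 110 genes called there, and limma voom called 0 members in any population. Without the filter on low counts edgeR called 2 members in DC (C1qb and C1qc), 3 in AM (C1qb, C1qc and Pf4), 3 in Ly6Chi (C1qa, C1qb and C1qc) and 0 in Ly6Clo, while its calls over all genes numbered 369, 325, 235 and 173.

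The C1q estimates were positive in DC, AM and Ly6Chi and negative in Ly6Clo. In DC the log2 fold change (hyperoxia over normoxia) was 0.31 ± 0.14 for C1qa, 0.36 ± 0.11 for C1qb and 0.40 ± 0.14 for C1qc (adjusted p = 0.546, 0.445 and 0.482). The litter means were higher in hyperoxia in 3 of 3 litters for each of them, but for C1qa by 0.91 on the log2(CPM + 1) scale in litter 100 against 0.12 in litter 93 and 0.068 in litter 108. Without hyperoxic DC replicate 3, the one hyperoxic library of litter 100, the estimates were 0.085 for C1qa, 0.24 for C1qb and 0.19 for C1qc. In Ly6Chi the estimates were 1.09 ± 0.52, 0.62 ± 0.29 and 0.97 ± 0.34 for C1qa, C1qb and C1qc (adjusted p = 0.758 each), again higher in 3 of 3 litters. Hyperoxic Ly6Chi replicate 5, of litter 108, was highest for all of them (113, 356 and 189 CPM), and without it the estimates were 0.63, 0.27 and 0.59. Markers of other cells had different summed levels in the Ly6Chi libraries too: dendritic cell markers summed to a median of 577 CPM in hyperoxia and 356 CPM in normoxia, B cell markers to 667 CPM in hyperoxia and 377 CPM in normoxia, epithelial markers to 362 CPM in hyperoxia and 1434 CPM in normoxia, and endothelial markers to 328 CPM in hyperoxia and 676 CPM in normoxia. Their part in the C1q estimates was not tested. In Ly6Clo they were −0.37 ± 0.31, −0.24 ± 0.18 and −0.26 ± 0.25 (adjusted p = 0.869, 0.86 and 0.886), lower in 2 of 3 litters.

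In AM the largest estimates were those of Pf4, C1qc, C1qb and Maf. Pf4 was at 184, 20.8, 53.4, 37.7 and 22.0 CPM in hyperoxic AM, against 6.49, 15.2 and 22.0 CPM (lowest, median, highest) in normoxic AM, a log2 fold change of 1.995 ± 0.60 (adjusted p = 0.28). Maf differed by 1.34 ± 0.42 (adjusted p = 0.263), C1qb by 1.67 ± 0.83 (adjusted p = 0.545) and C1qc by 1.75 ± 1.18 (adjusted p = 0.676). Pf4, Maf and C1qb were higher in hyperoxia in 3 of 3 litters. Replicate 1 of hyperoxic AM, of litter 93, was the highest library for C1qa (45.6 CPM), C1qb (109.9 CPM), C1qc (69.7 CPM) and Pf4 (184 CPM) but not for Maf. Without it the estimates were 1.18 for Pf4, 0.70 for C1qb, 0.25 for C1qc and 1.28 for Maf, and without the libraries under 1000000 counts they were 1.13, 0.32, 0.50 and 1.36. The summed tissue macrophage markers were 3875 to 4897 CPM in hyperoxic and 3444 to 3978 CPM in normoxic AM, and the dendritic cell markers 654 to 1296 CPM in hyperoxic and 331 to 1077 CPM in normoxic AM. Classical monocyte markers summed to a median of 3593 CPM in hyperoxic and 2579 CPM in normoxic AM, epithelial markers to 1351 CPM in hyperoxic and 2230 CPM in normoxic AM, and endothelial markers to 418 CPM in hyperoxic and 699.7 CPM in normoxic AM. Among platelet markers, Ppbp was at 0 in 0 of 5 hyperoxic and 4 of 6 normoxic AM libraries, and Gp9 in 1 of 5 hyperoxic and 4 of 6 normoxic ones. The whole list of 12 platelet markers summed to similar medians, 74.0 CPM in hyperoxic and 64.1 CPM in normoxic AM. Of these 12, 2 were tested in AM and 0 were called, with a median log2 fold change of 0.04. The part of platelets and other cells in the AM estimates was not tested.

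**Figure D5:**
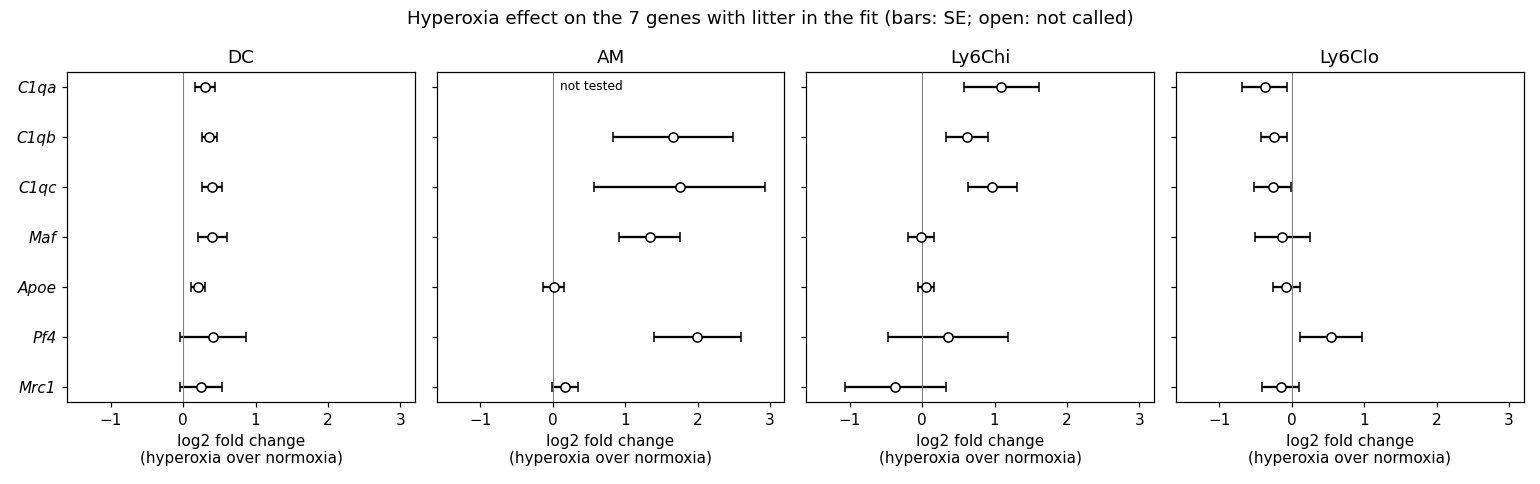
Log2 fold change of hyperoxia over normoxia with its SE (x axes) for the 7 genes in each population, with litter in the fit, and open points where the adjusted p did not pass 0.05, which is every point. The C1q estimates lie right of 0 in DC, AM and Ly6Chi and left of 0 in Ly6Clo, and C1qa was not tested in AM.

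The oxygen estimates of Apoe and Mrc1 ran from −0.37 to 0.25 over the populations. Apoe differed by 0.21 ± 0.09 in DC, 0.01 ± 0.15 in AM, 0.05 ± 0.11 in Ly6Chi and −0.07 ± 0.18 in Ly6Clo. Mrc1 differed by 0.25 ± 0.29 in DC, 0.17 ± 0.18 in AM, −0.37 ± 0.70 in Ly6Chi and −0.15 ± 0.25 in Ly6Clo. The SE of Apoe stayed under 0.19 in all populations, and Mrc1 in Ly6Chi had counts of 0 to 55.

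Averaged over the 4 populations in the fit of 43 libraries, no member passed either, where 3.02% of 12529 genes did. If populations share lungs, the p-values of this fit do not account for it. The estimates were 0.68 ± 0.28 for C1qa, 0.51 ± 0.21 for C1qb, 0.66 ± 0.25 for C1qc and 0.76 ± 0.31 for Pf4 (adjusted p = 0.178, 0.185, 0.144 and 0.178), with 0.27 ± 0.19 for Maf, 0.03 ± 0.08 for Apoe and 0.01 ± 0.20 for Mrc1. Their median was 0.51, beside −0.04 over all genes. At an unadjusted p under 0.05 there were 2176 genes, 4 of them members. The difference of the hyperoxia effect between populations was called for 0% of genes and for 0 members by edgeR, with 617 genes at an unadjusted p under 0.05, and for 0 members by DESeq2 and limma voom. The opposite signs of the C1q estimates in Ly6Clo and in the other populations did not pass a test of their difference. Without the filter on low counts, 4 members (the C1q genes and Pf4) were called in the average and in the difference, among 1033 and 524 genes. The cause of this change was not tested.

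Ly6Clo and Ly6Chi could be compared in hyperoxia too. There 4 of 7 members were called higher in Ly6Clo and 0 lower (background 15.1% and 15.2%): C1qa by 1.81 ± 0.56 (adjusted p = 0.0235), C1qc by 1.47 ± 0.53 (adjusted p = 0.0484), Pf4 by 3.35 ± 0.64 (adjusted p = 0.000967) and Mrc1 by 5.05 ± 0.49 (adjusted p = 1.19e-06). Apoe at 0.35 ± 0.13 (adjusted p = 0.0502) and C1qb at 1.07 ± 0.46 (adjusted p = 0.0927) missed the threshold. Leaving out single libraries gave 2 to 6 calls, with Pf4 and Mrc1 called each time. C1qa lost its call without Ly6Chi replicate 1, 2 or 4 or Ly6Clo replicate 2 or 4 (adjusted p up to 0.0747) and without litter 93 (adjusted p = 0.287), and C1qc lost it without any 1 of 14 of the 20 hyperoxic libraries. C1qc also lost it without litter 93, 100 or 108 (adjusted p = 0.286, 0.0581 and 0.126), with DESeq2 (adjusted p = 0.0645) and with detected genes as a covariate (adjusted p = 0.0528).

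Of 8 other genes of the classical pathway, 7 were found in the table and summed. Their sum was highest in Ly6Chi, at medians of 425 CPM in hyperoxia and 427 CPM in normoxia, against 42.7 to 161 CPM in the other populations. In the fit of Ly6Chi libraries 1 of the 8 passed the filter, so the sum does not describe each gene. Of these 8 genes, for C1r, C1s, C2, C3, C4 and the C1 inhibitor, 4 passed the filter in the fit of 43 libraries. There 1 was called, C1ra, which encodes the protease C1r (background 3.02% in either direction). It was higher in hyperoxia on average (1.09 ± 0.31, adjusted p = 0.0403). That fit does not account for lungs that populations may share. Within single populations 1 or 2 of the 8 genes were tested for hyperoxia and 0 were called. In normoxia C3, the central complement component, was lower in Ly6Clo (−2.03 ± 0.21) and in DC (−3.36 ± 0.21) than in Ly6Chi, the reverse of the C1q genes. Only 2 of the 8 genes were tested there, so C3 does not stand for the list. The other one was called higher in Ly6Clo than in Ly6Chi and was not called in DC over Ly6Chi. C3ar1, the receptor of the C3a fragment, went with C1q, at 4.39 ± 0.43 in Ly6Clo over AM and 4.73 ± 0.41 in DC over AM (adjusted p = 1.92e-07 and 6.22e-09). Among 17 complement receptors and regulators, 13 were tested in Ly6Clo over AM. Of these 4 were higher and 0 lower (background 14.2% and 7.28%), with a median of 0.15. In hyperoxia 0 of these receptors were called in any population by edgeR.

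Tissue macrophage markers other than the members split the populations as C1q did in part. In normoxia 16 of 25 tested were higher and 0 lower in Ly6Clo than in AM (background 14.2% and 7.28%). The median log2 fold change was 1.34, against 0.03 over all genes. The higher ones included Cx3cr1, the fractalkine receptor gene (4.99 ± 0.31), Aif1 (2.90 ± 0.24) and Adgre1, which encodes F4/80 (1.46 ± 0.14). In DC over AM 16 were higher and 5 lower (background 27.5% and 22.4%), so the count lower was near that of all genes. The lower ones included Mertk, the apoptotic cell receptor gene (−2.82 ± 0.37), and Siglec1, which encodes CD169 (−2.44 ± 0.33). Mertk and Siglec1 were also higher in Ly6Clo than in DC (2.24 ± 0.38 and 2.36 ± 0.34), as Mrc1 was. Mertk and Siglec1 in DC over AM were picked out after their values were seen. In hyperoxia 0 were called in any single population. On average over populations 3 of 26 were higher and 0 lower (background 3.02% in either direction). They were Adgre1 (0.38 ± 0.09), Tyrobp, a signalling adaptor gene (0.30 ± 0.09), and Cd68, a lysosomal gene (0.26 ± 0.07), with adjusted p = 0.0187, 0.0494 and 0.0295. These come from the fit of all libraries, which does not account for lungs that populations may share.

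Genes of lipid efflux, the process Apoe serves, were higher in Ly6Clo than in DC for 9 of 15 and lower for 0 in normoxia (background 12.7% and 11.7%). Their median was 0.78, against −0.02 over all genes. They included Abcg1, a cholesterol exporter gene (2.30 ± 0.19), and Npc1, a lysosomal cholesterol transporter gene (1.35 ± 0.18), both among the 4 with the smallest p. Other pairs did not follow Apoe. In DC over AM 4 of 15 were higher and 9 lower (median −0.72, background 27.5% and 22.4%), while Apoe was at 0.70 ± 0.12. In AM over Ly6Chi 6 were higher and 4 lower (median 0.42, background 24.0% and 28.3%), while Apoe was at −0.63 ± 0.12. Under hyperoxia 0 genes of this list were called in any single population. On average Npc1 (0.30 ± 0.08, adjusted p = 0.0306) and Npc2 (0.20 ± 0.05, adjusted p = 0.0245), its lysosomal partner, were higher and Pltp, a lipid transfer protein gene, lower (−0.74 ± 0.22, adjusted p = 0.0494). These averages come from the fit of all libraries (background 3.02% in either direction), which does not account for lungs that populations may share. Of the genes for receptors and bridges of dead cell uptake, 13 were tested in Ly6Clo over Ly6Chi in normoxia, and 4 were higher and 0 lower, with Axl, a receptor tyrosine kinase gene, at 2.55 ± 0.18 and Cd36, a scavenger receptor gene, at 1.75 ± 0.23.

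Likeness of pattern was read as Pearson's r over the 8 group means of log2(CPM + 1), which share litters, among 12236 genes. Closest to the mean of the C1q genes was C3ar1 (r = 0.989), followed by Pdpr (0.983) and Rasgrp1 (0.983), and Stab1, a scavenger receptor gene, was among the 10 closest (0.970). Closest to Pf4 was Slc40a1, the iron exporter gene (0.985). C1qb and C1qc had r = 0.997 with each other. Mrc1 had r between −0.17 and 0.00 with the C1q genes and 0.54 with Pf4. With 8 points these values rank patterns and carry no test.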

How the data were processed

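The deposited table holds raw counts per Ensembl gene, made by the authors. The submitters' processing notes name TopHat, HTSeq 0.4.1, FastQC, Picard, SAMtools and the build NCBIM37, without roles or order. Per the labels, cells were sorted into SMART-Seq v4 lysis buffer and libraries were made with Nextera XT. Whether counting used strand is not given in the sources used here. Symbols and exonic lengths came from GENCODE M21 (GRCm38).

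Levels are counts per 1000000 (CPM) scaled by TMM over 43 libraries, with no replicates merged. At most 3.27% of genes with 10 or more counts had equal counts between libraries of a group. Tests used edgeR 4.0.16 (R 4.3.3) quasi-likelihood fits with litter as an additive term, a filter at a minimum count of 10 and total of 15, and Benjamini-Hochberg adjustment over all genes tested, called at an adjusted p under 0.05. SE is the absolute log2 fold change divided by the square root of F. The hyperoxia effect was fitted within each population. Its average and its difference between populations used all libraries, and population pairs in one condition used that condition's libraries. DESeq2 1.42.0 and limma 3.58.1 voom were alternatives, besides other scaling, no filter, no litter term, left-out litters and libraries, detected genes as a covariate and a count limit. The fits were tested on simulated data. From each gene list at most 4 called genes with the smallest p were to be named, besides the members and the closest patterns. Members and lists were chosen with earlier results of these data known.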

Additional observations from a re-analysis of the deposited data

Results flagged for a closer look

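Of 56 gene and group combinations examined for a library far from the rest, 2 stood apart, and chance alone is expected to pick about 1 in 20 groups. Both were in the same library, hyperoxic AM replicate 1 of litter 93. C1qa was at 45.6 CPM there, and the next of the 5 hyperoxic AM libraries was at 9.79 CPM. Pf4 was at 184 CPM there, and the next was at 53.4 CPM.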

How the results depend on the processing

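No paired analysis was made because the labels name no single pup (replicate numbers used here follow the listing order). Litter was the block. Of the member fold changes recomputed under the alternatives, 2448 kept direction and side of the threshold, 30 lost the call, 34 gained it (15 of these without the filter on low counts) and 80 changed sign. No fold change that changed sign was called on either side, and the cause of these changes was not tested. Without the filter on low counts, members called with hyperoxia numbered 2 in DC, 3 in AM, 3 in Ly6Chi, 4 in the average and 4 in the difference between populations, and DESeq2 called 1 in AM. Members called in Ly6Clo over DC in normoxia numbered 1 without litter 108 and 1 with detected genes as a covariate. Detected gene number differs between DC and the other populations, so in pairs with DC that covariate is confounded with population. In Ly6Clo over Ly6Chi in hyperoxia they numbered 2 without litter 93 and 2 to 6 with single libraries left out.

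The following log2 fold changes took the other sign. With limma voom they were −0.0054 for Apoe in AM, 0.025 for Mrc1 in Ly6Chi and −0.019 on average, and 0.011 for Mrc1 in Ly6Clo over AM. Without litter 93 the hyperoxia effects were −0.21 for Apoe and −0.11 for Mrc1 in AM, 0.18 for Maf, −0.075 for Apoe and −0.37 for Pf4 in Ly6Chi, 0.51 for Maf in Ly6Clo, and −0.13 for Apoe and −0.21 for Mrc1 on average. Without that litter Maf was at −0.51 in Ly6Clo over DC, −0.51 in Ly6Clo over Ly6Chi in normoxia, −0.28 in the same pair in hyperoxia and 0.0059 in DC over Ly6Chi, where Apoe was at −0.0056. Without litter 100, Apoe was at −0.034 in AM, Mrc1 at 0.15 in Ly6Chi and 0.24 in Ly6Clo over AM, and Maf at 0.23 in DC over Ly6Chi. Without litter 108, Apoe was at 0.23 and Mrc1 at 0.031 in Ly6Clo, and C1qc at 0.060 in Ly6Clo over DC. Without libraries under 1000000 counts, Apoe was at −0.46 and Mrc1 at −0.41 in AM, at −0.0082 and −0.12 on average, and Mrc1 at 0.046 in Ly6Clo over AM. With detected genes as a covariate, Apoe was at −0.058 and Mrc1 at −0.21 in AM, Apoe at −0.022, Pf4 at −0.14 and Mrc1 at 0.013 in Ly6Chi, C1qc at 0.032 and Maf at 0.19 in Ly6Clo, Apoe at −0.056 on average, and C1qa, C1qb and C1qc at 0.56, 0.29 and 0.52 in Ly6Clo over DC. Corrected for a count limit, Apoe was at −0.027 in AM.

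Leaving out single libraries gave hyperoxia effects of −0.069 to 0.11 for Apoe in AM; −0.15 to 0.074 for Maf, −0.0079 to 0.14 for Apoe, −0.46 to 1.005 for Pf4 and −0.60 to 0.14 for Mrc1 in Ly6Chi; −0.44 to 0.11 for Maf, −0.16 to 0.23 for Apoe and −0.32 to 0.031 for Mrc1 in Ly6Clo; and −0.063 to 0.079 for Mrc1 on average. In normoxia it gave −0.26 to 0.067 for C1qb and −0.31 to 0.10 for C1qc in Ly6Clo over DC, −0.21 to 0.046 for Mrc1 in Ly6Clo over AM, −0.18 to 0.12 for Maf in DC over Ly6Chi and −0.75 to 0.13 for Pf4 in AM over Ly6Chi. Depth limits AM most, where C1q counts are low.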
